A study of Mus musculus with 18 samples.

Results

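The genes described here are 10 markers of hippocampal subfields and of the long axis of the hippocampus, out of 48440 genes in the deposited table. They are Prox1, C1ql2, Dsp and Lct for dentate granule cells, Fibcd1 and Wfs1 for CA1 pyramidal cells, Iyd for CA3, Zbtb20 for the hippocampus as a whole, and Grp and Nr2f2 for the ventral pole. Each was found by its symbol, and all 10 were present. They were chosen from a whole-series reading of these same libraries, with their levels in the tissues and their differences between performers in view, so both are given as descriptions and support nothing. The libraries came from Diversity Outbred mice, a stock of genetically distinct animals bred from several founder strains. There were 6 groups of 3 libraries: high performers and low performers in HPF, in MDTH and in PFC, the prefrontal cortex. The labels do not spell out HPF or MDTH, and the sources used here give neither the age or sex of the mice nor the task behind high and low, beyond naming short-term memory as the subject. No treatment or transgene is named for any group. Estimated depth was 76705224 to 88633388 reads per library in HPF, 42940973 to 47535071 in MDTH and 41156135 to 48838430 in PFC. All values are normalized counts by the name of the deposited table, read here as gene counts divided by a factor per library.

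The hippocampus passes signals from granule cells of the dentate gyrus through their mossy fibres to CA3 pyramidal cells, and from there to CA1. Each of these fields holds its own type of excitatory neuron, with its own set of transcription factors, receptors and synaptic proteins. A further gradient runs along the long axis, with the dorsal pole tied more to spatial memory and the ventral pole more to emotional behaviour. Because these genes mark cell types and places, in a bulk library their level depends both on which cells are in the piece of tissue and on how much RNA each cell holds, and these cannot be told apart.

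Fibcd1 and Wfs1, the CA1 members, lay higher in every HPF library of high performers than in any of low performers, and Iyd lay lower. The promoters of these 3 genes are shown. C1ql2 also lay higher in every high library, by a smaller log2 difference, and its promoter is not shown. Each window runs from 250 bases before to 50 bases after the RefSeq transcription start on build GRCm38.p6, 5′ to 3′ on the strand of the gene. Capitals mark the TATA box (TATAAA, or TTTATA from the other strand) and the GC box (GGGCGG, or CCGCCC from the other strand), searched on both strands, motifs that do not overlap each other.
Fibcd1, chr2:31845956-31846255, minus strand: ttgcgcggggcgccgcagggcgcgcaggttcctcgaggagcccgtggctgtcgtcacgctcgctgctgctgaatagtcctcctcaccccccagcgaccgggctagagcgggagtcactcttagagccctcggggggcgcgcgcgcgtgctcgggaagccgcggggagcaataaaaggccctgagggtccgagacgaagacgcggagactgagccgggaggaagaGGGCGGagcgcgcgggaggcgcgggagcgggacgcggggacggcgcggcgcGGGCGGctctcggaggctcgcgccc
Wfs1, chr5:36988933-36989232, minus strand: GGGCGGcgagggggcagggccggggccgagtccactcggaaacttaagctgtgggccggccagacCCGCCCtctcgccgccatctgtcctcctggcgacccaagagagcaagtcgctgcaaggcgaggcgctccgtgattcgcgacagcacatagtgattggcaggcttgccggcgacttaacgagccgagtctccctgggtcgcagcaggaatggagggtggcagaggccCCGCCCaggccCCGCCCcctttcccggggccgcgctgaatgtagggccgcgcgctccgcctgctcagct
Iyd, chr10:3540024-3540323, plus strand: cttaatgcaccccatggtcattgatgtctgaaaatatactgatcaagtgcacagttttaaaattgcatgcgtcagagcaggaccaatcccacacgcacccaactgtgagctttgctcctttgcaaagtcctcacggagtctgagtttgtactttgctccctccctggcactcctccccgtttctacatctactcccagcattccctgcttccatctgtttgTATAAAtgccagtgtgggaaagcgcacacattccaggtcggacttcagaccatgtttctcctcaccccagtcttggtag
The Fibcd1 window held 74.3% G and C, 46 CpG dinucleotides and 2 GC boxes. The Wfs1 window held 70.0% G and C, 30 CpG and 4 GC boxes. The Iyd window differed from both, with 49.0% G and C, 6 CpG, no GC box and 1 TATA box that began 29 bases before the start. Over all 32851 RefSeq promoters in the table the medians were 52.7% G and C and 7 CpG, 35.7% held a GC box and 13.6% a TATA box. RefSeq windows were found for 9 members.

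**Figure D1:**
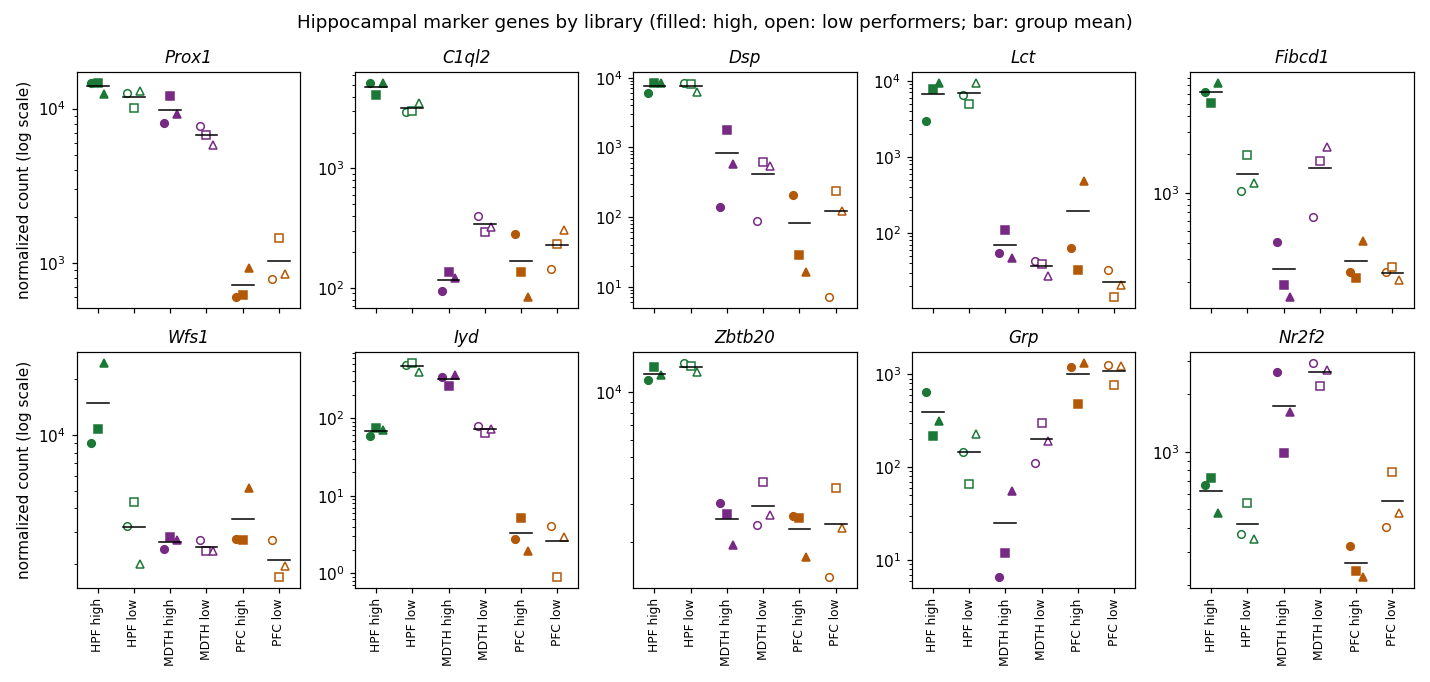
Normalized count of each member in each library (log axis), by tissue and performer group. Filled symbols are high and open symbols low performers, circles, squares and triangles are replicates 1, 2 and 3, and bars are group means. Fibcd1, Wfs1 and C1ql2 separate the HPF groups upward in high performers and Iyd separates them downward, while Dsp, Lct and Zbtb20 stand far above the other tissues in both HPF groups.

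Of the dentate members, C1ql2 alone separated the HPF groups, while Prox1, Dsp and Lct overlapped. Prox1 (GRCm38 chromosome 1, 190118035 to 190170714, minus strand, protein coding) encodes the homeobox factor that sets and keeps granule cell identity. It held 14743, 14678 and 12469 normalized counts in HPF of high performers, against 12536, 10147 and 12971 in low performers. The high group reached further up but the groups overlapped. The log2 difference was 0.24 (SE 0.12, 95% interval -0.05 to 0.52, limma adjusted p = 0.449). The antisense transcript Prox1os overlaps it and held 440 to 547 in high and 332 to 518 in low performers in HPF.

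C1ql2 (chromosome 1, 120340582 to 120343174, plus strand) encodes a secreted protein that granule cells release at mossy fibre synapses. In HPF it held 5234, 4122 and 5200 normalized counts in high performers, against 2962, 3046 and 3556 in low performers. Every high library lay above every low library. The ratio of means was 1.52 and the log2 difference 0.60 (SE 0.12, limma adjusted p = 0.163), which did not pass. Groups failed to overlap for 20.0% of all 18082 genes tested in HPF, and for 4 of the 10 members, 3 of them higher and 1 lower in high performers.

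Dsp and Lct showed no separation of performers in HPF. Dsp (chromosome 13, 38151294 to 38198577, plus strand) encodes desmoplakin, a desmosome protein that in mouse brain marks granule cells. It held 6102, 8473 and 8403 normalized counts in HPF of high performers and 8498, 8112 and 6241 in low performers, the lowest value of each group being nearly equal. Lct (chromosome 1, 128284756 to 128328318, minus strand) encodes lactase, an intestinal enzyme whose RNA is also found in mature granule cells of the mouse. It held 2922, 7779 and 9437 in high performers, against 6408, 4979 and 9222 in low performers. Replicate 1 of the high group was the lowest of the 6 and replicate 3 the highest, so the high group spanned the low one. The log2 differences were 0.005 for Dsp (SE 0.17, 95% interval -0.39 to 0.40, limma adjusted p = 0.994) and -0.15 for Lct (SE 0.44, 95% interval -1.19 to 0.88, limma adjusted p = 0.909).

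The CA1 members stood higher in HPF of high performers. Fibcd1 (chromosome 2, 31813290 to 31846005, minus strand) encodes a membrane receptor for acetylated sugars and marks CA1 pyramidal cells in the mouse. It held 6190, 5064 and 7333 normalized counts in high performers, against 1036, 1994 and 1202 in low performers. The lowest high library was well above the highest low library, and the ratio of means was 4.39. The log2 difference was 2.18 (SE 0.25, 95% interval 1.58 to 2.77, limma adjusted p = 0.0703), which did not pass, though it did when low replicate 2 was left out (adjusted p = 0.0150), with no filter on low values (0.0456) and when fitted with all 18 libraries (0.0221).

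Wfs1 (chromosome 5, 36966104 to 36989205, minus strand) encodes wolframin, a membrane glycoprotein of the endoplasmic reticulum that is strong in CA1. In HPF it held 9019, 10714 and 24581 normalized counts in high performers, against 3211, 4322 and 2009 in low performers. The groups did not overlap, and replicate 3 of the high group stood far above the others. Its ratio of means was 4.64 and its log2 difference 2.14 (SE 0.42, 95% interval 1.16 to 3.11, limma adjusted p = 0.152). Without that library the log2 difference was 1.70 (adjusted p = 0.215), and when fitted with all 18 libraries it passed (adjusted p = 0.00829).

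Iyd went the other way and was the only member to pass in HPF. Iyd (chromosome 10, 3540240 to 3554877, plus strand) encodes iodotyrosine deiodinase, which recovers iodide from by-products of thyroid hormone synthesis, and in mouse hippocampus it marks CA3. In HPF it held 59.7, 74.8 and 69.6 normalized counts in high performers, against 489, 521 and 388 in low performers. The groups lay far apart and the spread within each was small. Iyd fell by 2.75 on the log2 scale (SE 0.20, 95% interval -3.22 to -2.28, limma adjusted p = 0.0181), and its mean in high performers was 0.146 of that in low performers. It was 1 of 3 genes that passed in HPF, 0.0166% of those tested, the others being the predicted gene Gm8399 (log2 difference 3.71) and the pseudogene Actg-ps1 (4.29). Without high replicate 1 no gene passed, and without high replicate 3, low replicate 1 or low replicate 2 the number was 6, 7 and 15. The adjusted p of Iyd was above 0.05 without high replicate 1 (0.0705) or 2 (0.0553) and without low replicate 1 (0.0539) or 3 (0.0513), at log2 differences of -2.66, -2.82, -2.71 and -2.88.

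Zbtb20 marked HPF without separating performers. Zbtb20 (chromosome 16, 42875881 to 43642602, plus strand) encodes a zinc-finger repressor that mouse hippocampal neurons need to take on their identity, and astrocytes express it too. It held 11343, 13047 and 11948 normalized counts in HPF of high performers, against 13657, 13095 and 12389 in low performers. The groups overlapped, and the log2 difference was -0.11 (SE 0.08, 95% interval -0.31 to 0.09, limma adjusted p = 0.612), an interval narrower than that of Dsp. The annotation places 5 genes on its strand and 4 on the other within its span. Its count could share reads with them.

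Neither ventral member separated the performers in HPF. Grp (chromosome 18, 65872820 to 65886596, plus strand) encodes gastrin-releasing peptide, a neuropeptide of some excitatory neurons. It held 641, 218 and 314 normalized counts in HPF of high performers, against 146, 66 and 227 in low performers. The lowest high library lay just under the highest low one. Nr2f2 (chromosome 7, 70351944 to 70366735, minus strand) encodes the orphan nuclear receptor COUP-TFII, found toward the ventral pole and in some inhibitory neurons. It held 668, 726 and 477 in high performers, against 374, 539 and 352 in low performers, again with an overlap. Log2 differences of 1.44 for Grp (SE 0.54, limma adjusted p = 0.332) and 0.57 for Nr2f2 (SE 0.23, limma adjusted p = 0.355) did not pass.

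**Figure D2:**
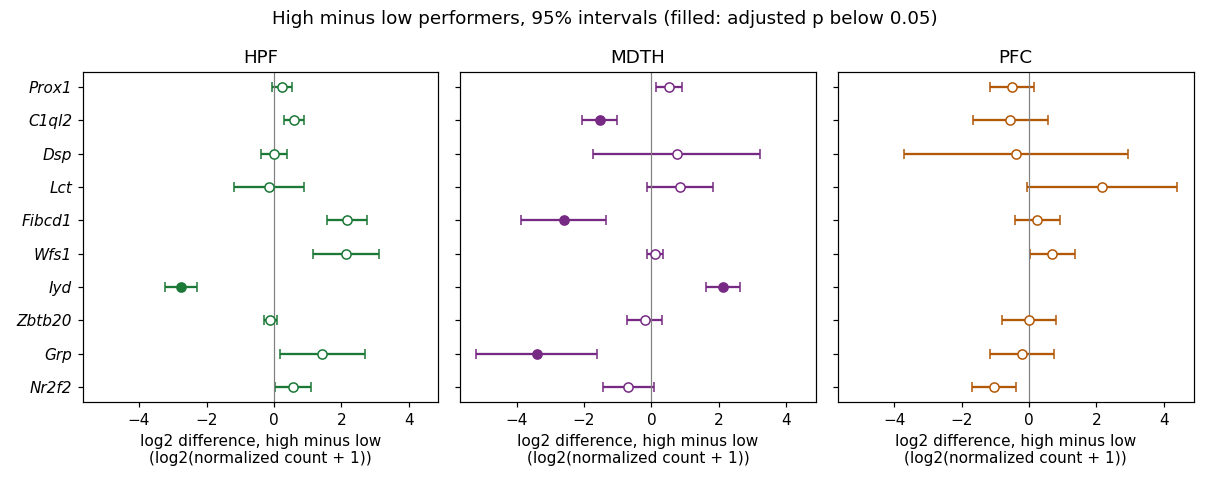
Log2 difference between high and low performers for each member in HPF, MDTH and PFC, with 95% intervals from limma. Filled points have an adjusted p below 0.05, and Iyd is not plotted in PFC, where its mean was under the filter. Iyd and Fibcd1 lie on opposite sides of 0 in HPF and have both changed side in MDTH.

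Sequencing lane moved partly with performance in HPF. High replicates 1 and 2 were run in lane 3, low replicates 1 and 2 in lane 5, and both replicates 3 in lane 4, per the library names. Letters after the number in these names divide the groups completely, FF or EF in high and BA or BD in low performers. What they stand for is not stated in the labels, so they and performance cannot be told apart, in lane 4 as in the others. In lane 4 the high and the low library held 7333 and 1202 normalized counts of Fibcd1, 24581 and 2009 of Wfs1, 69.6 and 388 of Iyd, and 5200 and 3556 of C1ql2. These within-lane log2 differences, 2.61, 3.61, -2.46 and 0.55, rest on 1 library each and have no replicate check. With lane as a covariate the limma adjusted p was 0.316 for Fibcd1, 0.0571 for Wfs1, 0.243 for Iyd and 0.529 for C1ql2, and none passed. Prox1 and Lct lay at -0.057 and 0.033 in that lane, each on the other side of 0 from its value over all lanes.

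Other genes of the same subfields, listed with earlier results known, gave the following picture in HPF. None of the 39 listed genes passed by limma; at an unadjusted p below 0.05 there were 6 higher in CA1, 4 lower in CA3 and 1 higher among hilar mossy cell genes, against 13.3% of all genes in either direction. The 7 CA1 genes all had positive log2 differences, of 0.65 or more, with a median of 1.75 against -0.007 over all genes. Their sum was 18928, 20081 and 26434 normalized counts in high performers, against 6578, 9840 and 6162.5 in low performers. When fitted with all 18 libraries 5 of the 7 passed, against 265 of all 18254 genes tested in that fit. The same sum was 23942 to 25924 in PFC of high and 21491 to 28562 in PFC of low performers, so it is not particular to HPF.

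Among the CA1 genes, Gpr161, a receptor of the primary cilium, held 2754, 3421 and 3416 normalized counts in HPF of high performers, against 692, 1019 and 509 in low performers. The groups did not overlap, and the log2 difference of 2.16 was close to that of Wfs1 (SE 0.24, limma adjusted p = 0.0686). Mpped1, a metallophosphoesterase domain gene, held 8274, 6567 and 11994 in high performers, against 2213, 3586 and 2146 in low performers (log2 difference 1.75, SE 0.27, limma adjusted p = 0.106). Spink8 alone of the 7 overlapped between groups, since low replicate 2 held 761. Groups failed to overlap for 20.0% of all genes.

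The CA3 genes lay on the side of Iyd, though less far. Their median log2 difference was -0.92, 6 of 7 were negative, and 4 did not overlap between the groups, against 20.0% of all genes. Cpne4, a calcium-dependent membrane-binding protein, held 8208, 6006 and 5656 normalized counts in HPF of high performers, against 18348, 16986 and 14205 in low performers. Every high library was under every low one (log2 difference -1.33, SE 0.16, limma adjusted p = 0.0737). Bok, a BCL2 family member, held 2327, 2156 and 952 in high performers, against 6121, 4277 and 4476 in low performers (log2 difference -1.54, SE 0.34, limma adjusted p = 0.185). When fitted with all 18 libraries 3 CA3 genes passed, against 265 of all 18254 genes tested in that fit. Plagl1, a zinc-finger factor, was the exception in sign, at 0.17.

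The other lists stood nearer to 0. The 8 dentate genes had a median log2 difference of 0.14 and a range of -0.32 to 0.52, and Trpc6, a calcium-permeable channel, lay at 0.24 (SE 0.15, limma adjusted p = 0.516) and Npnt, an extracellular matrix protein, at 0.52 (SE 0.32). The 7 CA2 genes were all negative with a median of -0.39, and Rgs14, which limits synaptic plasticity in CA2, lay at -0.39 (SE 0.18, limma adjusted p = 0.401) and Cacng5, which regulates AMPA receptors, at -0.93 (SE 0.46). The 4 hilar mossy cell genes had a median of -0.11, with Nmb, which encodes neuromedin B, at -0.72 (SE 0.67). Calb2, which encodes calretinin, held 645, 3199 and 436 normalized counts in high performers, against 300.5, 319 and 269 in low performers. High replicate 2 stood far above the rest, and the log2 difference of 1.71 (SE 0.67, limma adjusted p = 0.349) was 0.84 without it (adjusted p = 0.225). The 6 ventral pole genes were all positive with a median of 0.52, but with lane as a covariate 3 were positive and 3 negative, with a median of 0.01, and without low replicate 1 they split 4 and 2. Htr2c, a serotonin receptor, held 323, 3084 and 264 normalized counts in high performers, against 203, 273 and 180 in low performers, and its log2 difference was 1.57, or 0.44 without high replicate 2. Dcn, an extracellular proteoglycan, lay at 0.73 (SE 0.39). Leaving out each library in turn moved the median between 1.45 and 2.10 for CA1, -1.13 and -0.78 for CA3, -0.49 and -0.24 for CA2 and 0.34 and 0.90 for the ventral pole. The dentate median, at -0.04 to 0.29, and the hilar one, at -0.41 to 0.23, crossed 0.

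**Figure D3:**
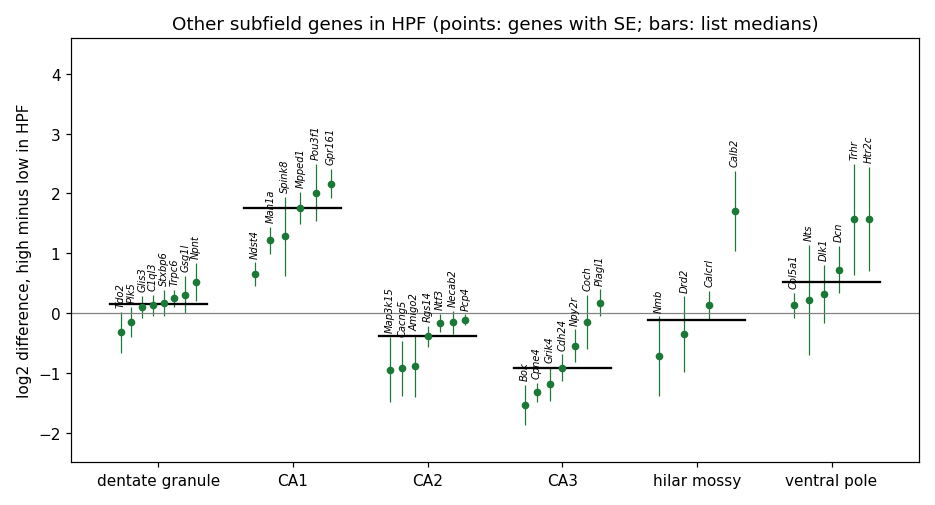
Log2 difference between high and low performers in HPF for listed genes, by subfield, each with its SE. Thick bars are medians over all tested genes of a list, drawn or not: CA1 at 1.75, CA3 at -0.92, CA2 at -0.39 and dentate at 0.14.

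Markers of other cells also moved in HPF, and their part in the members' values was not tested. Summed over 7 choroid plexus genes, high replicate 2 held 165630.5 normalized counts, against 4370 to 9199 in the other 5 libraries. That library was also highest for 8 thalamic genes, at 19633, with the other high libraries at 6020 and 7043 and the low ones at 9895 to 11979. Prkcd, a protein kinase C, made most of the low sums, at 6071 to 8681 in low performers. Without it the other 7 thalamic genes summed to 4790, 15853 and 5197 in high performers, against 3297.5, 3722 and 3823 in low performers. Of the 8 log2 differences 7 were positive, with a median of 1.15. The log2 differences of Fibcd1, Wfs1 and Iyd without high replicate 2 were 2.31, 2.30 and -2.82 (limma adjusted p = 0.122, 0.184 and 0.0553). Astrocyte genes summed to 249308 to 404535 in high and 221039 to 257320 in low performers, vascular genes to 7910 to 15280 and 5923 to 8141, and meningeal genes to 4242 to 10696 and 3900 to 6501. Striatal genes summed to 8876 to 10166 in high and 5405 to 5901 in low performers, habenular genes to 148 to 308 and 47.6 to 121, neocortical layer genes to 9322 to 9823 and 8215 to 9547, and inhibitory neuron genes to 34374 to 38249 and 33190 to 39204. No gene of these 9 lists was at 0 in all 3 libraries of an HPF group, and none of their 63 genes passed by limma, while 15 had an unadjusted p below 0.05, against 13.3% of all genes. The log2 differences with the smallest p were -1.90 for Prkcd and 1.11 for Lef1 (thalamus), 2.24 for Pou4f1 and 1.38 for Gpr151 (habenula), and -0.67 for Tbr1 and 0.70 for Etv1 (neocortex). They were 0.84 for Ppp1r1b and 0.62 for Penk (striatum), 2.20 for F5 and 2.34 for Ttr (choroid plexus), and -1.48 for Sst and 0.80 for Vip (inhibitory neurons). Fgfr3 lay at 0.60 and Gja1 at 0.42 (astrocytes), Rgs5 at 0.66 and Flt1 at 0.53 (vessels), and Igf2 at 1.08 and Col1a1 at 0.72 (meninges).

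**Figure D4:**
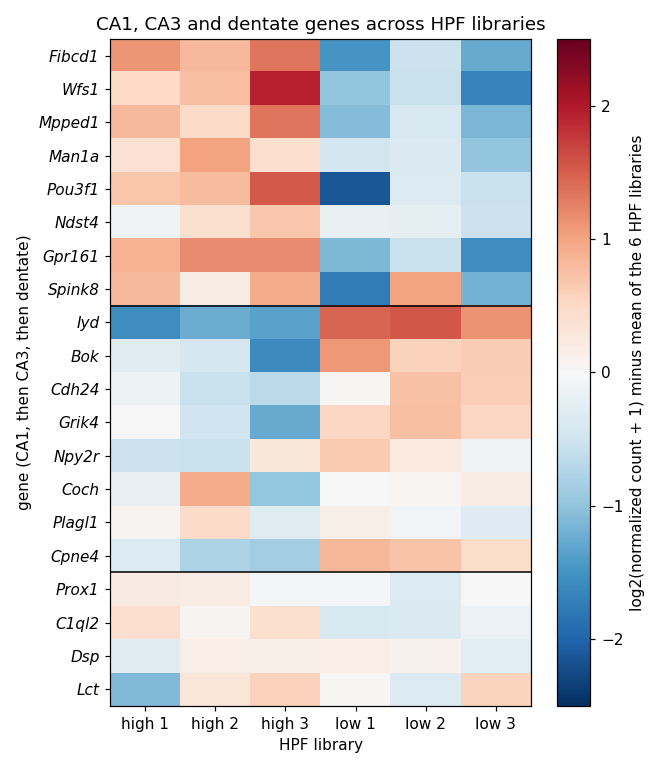
Each gene's log2(normalized count + 1) in the 6 HPF libraries, minus its own mean over them, for CA1 genes with the members Fibcd1 and Wfs1 (top), CA3 genes with the member Iyd (middle) and dentate members (bottom). The CA1 block is mostly red in the 3 high libraries and blue in the low ones, the CA3 block is mostly the reverse, and the rows of the dentate members are paler apart from Lct in high replicate 1.

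In MDTH the picture of the members was different, and 4 of 10 passed, against a background of 25.0% of 17861 genes. Those 4470 genes became 2469 and 2800 without high replicate 2 or 3, and 2377 and 1839 without low replicate 2 or 3. Iyd held 337, 259 and 359 normalized counts in MDTH of high performers, against 79.7, 64.0 and 72.4 in low performers. Here every high library lay above every low library, the reverse of HPF, and Iyd rose by 2.12 on the log2 scale (SE 0.22, limma adjusted p = 0.00282). Fibcd1 held 410, 189 and 152 in high performers, against 649, 1790 and 2295 in low performers. It fell by 2.60 (SE 0.54, limma adjusted p = 0.0157), also the reverse of HPF.

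C1ql2 held 95.1, 135.6 and 122 normalized counts in MDTH of high performers, against 404, 295 and 325 in low performers, and fell by 1.53 on the log2 scale (SE 0.22, limma adjusted p = 0.00563). Grp held 6.62, 12.0 and 55.9 in high performers, against 112, 302 and 194 in low performers, and fell by 3.40 (SE 0.76, limma adjusted p = 0.0198). Neither gene's groups overlapped. Groups failed to overlap for 6 members, the 4 named, Prox1 and Lct, against 44.2% of all genes. Prox1 held 8100, 11985 and 9206 in MDTH of high performers and 7665, 6744 and 5771 in low performers (log2 difference 0.53, SE 0.16, limma adjusted p = 0.0548). Without high replicate 2, low replicate 2 or low replicate 3 the adjusted p was 0.0540, 0.0554 and 0.0585 for Fibcd1 and 0.0650, 0.0683 and 0.0701 for Grp, at log2 differences of -2.47, -2.42 and -2.24 for Fibcd1 and -3.17, -3.06 and -3.37 for Grp. Without high replicate 1, Prox1 passed (0.0326), as did Nr2f2 (0.0243).

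The remaining members did not pass in MDTH. Nr2f2 held 2607, 986 and 1621 normalized counts in high performers, against 2929, 2207 and 2692 in low performers. Its groups overlapped through high replicate 1 (log2 difference -0.69, SE 0.32, limma adjusted p = 0.160). Dsp varied most, at 138, 1775 and 569 in high performers and 88.0, 612 and 548 in low performers. Wfs1 was even, at 2423, 2822 and 2700 in high performers and 2688, 2349 and 2363 in low performers.

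In MDTH the style of the library names divides high from low performers completely, and what the style stands for is not stated in the labels, so it and performance cannot be told apart there. Thalamic genes summed to 239146, 276284 and 273231 normalized counts in MDTH of high performers, against 175859, 120249 and 119544 in low performers. Habenular genes summed to 337, 1595 and 959 in high performers, against 1523, 4356 and 11749 in low performers. Inhibitory neuron genes summed to 29652 in low replicate 1, where Fibcd1 and Grp were lowest of the low group. The other 5 MDTH libraries held 7506 to 13001. Single genes went both ways: of 8, groups did not overlap for 4 lower and 1 higher in high performers, against 44.2% of all genes. Gad2 held 536, 495 and 437 in high performers, against 9547, 2839 and 2457 in low performers. Adarb2 held 7199, 10843 and 9318 in high performers, against 5454, 1641 and 1810 in low performers. The part of these in the members' values was not tested. Of the other subfield genes, 3 CA1 genes and 5 dentate genes were lower and 1 dentate gene higher, 3 CA3 genes were higher and 2 lower, 2 CA2 genes were higher and 1 lower, and 2 ventral pole genes were lower by limma, against the background of 25.0% of all genes in either direction. CA1 gene Mpped1 fell by 1.53 (limma adjusted p = 0.00460), CA3 gene Bok rose by 2.08 (limma adjusted p = 0.00460) and Plk5, a dentate member of the polo-like kinases, fell by 2.91 (limma adjusted p = 0.00282).

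In PFC none of the 9 members tested passed by limma, against a background of 5.85% of 17991 genes, and 2 had an unadjusted p below 0.05, against 24.1% of all genes. The background of genes that passed hung on single libraries: 1053 genes passed in PFC, but 205, 17 and 7 did without high replicate 1, 2 or 3, and 278 and 9 without low replicate 1 or 3. Nr2f2 held 321, 239 and 222 normalized counts in PFC of high performers, against 404, 781 and 477 in low performers. It was the only member whose groups did not overlap in PFC, where 30.9% of all genes did not (log2 difference -1.05, SE 0.28, limma adjusted p = 0.0751, and 0.0375 when fitted with all 18 libraries). Wfs1 held 2729, 2685 and 5150 in high performers, against 2691, 1708 and 1950 in low performers (log2 difference 0.69, SE 0.28, limma adjusted p = 0.193). The groups overlapped by a few counts, and without high replicate 3, the highest, the log2 difference was 0.38 (adjusted p = 0.345). Lct held 64.0, 32.4 and 479 in high performers, against 33, 14.4 and 20.6 in low performers, so that high replicate 3 stood far above the rest, and the log2 difference of 2.17 was 1.05 without it (limma adjusted p = 0.215 and 0.353). Library name style divides the groups in PFC as well, so it and performance cannot be told apart there either. Meningeal genes summed to 6984, 2157 and 1066 in PFC of high performers, against 2883, 26186 and 8765 in low performers. Low replicate 2 was highest for this sum and for Nr2f2. Choroid plexus genes summed to 150113, 2297 and 1895 in high performers, against 4929, 128777.5 and 77841 in low performers. The part of these in the members' values was not tested. No gene of the 6 subfield lists passed in PFC by limma, and 6 of 39 had an unadjusted p below 0.05, against 24.1% of all genes.

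The difference between performers was compared between tissues by an interaction contrast in the fit to all 18 libraries. HPF enters both contrasts, so they are not independent of each other. Against MDTH, 5 of 10 members passed, with 19.0% of all genes as background. The difference in HPF minus that in MDTH was -4.87 for Iyd (SE 0.50, limma adjusted p = 4.86e-05), 4.78 for Fibcd1 (SE 0.61, adjusted p = 0.000186), 4.84 for Grp (SE 0.95, adjusted p = 0.00291), 2.14 for C1ql2 (SE 0.48, adjusted p = 0.00614) and 2.03 for Wfs1 (SE 0.49, adjusted p = 0.00924). Against PFC, 2 of 10 passed, with 9.14% of all genes as background: Iyd at -3.04 (SE 0.50, limma adjusted p = 0.00310) and Nr2f2 at 1.61 (SE 0.44, adjusted p = 0.0346). With the number in the library name as a block, Fibcd1 also passed against PFC (2.14, adjusted p = 0.0317) and Nr2f2 against MDTH (1.29, adjusted p = 0.0164). Nr2f2 against PFC missed 0.05 without HPF high replicate 1 or 2, HPF low replicate 1 or 3, PFC high replicate 2 or 3 or PFC low replicate 2 or 3, with adjusted p-values of 0.0556 to 0.0818 and log2 differences of 1.34 to 1.69.

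Name numbers recur across tissues, and Iyd can be read along them. Number 44 held 74.8 normalized counts of Iyd in HPF and 337 in MDTH, number 88 held 69.6 and 259, and number 165 held 59.7 and 359, all high performers. Number 163, a low performer, held 489 in HPF and 64.0 in MDTH. The 3 high numbers thus held more Iyd in MDTH than in HPF, and the low number held less. The low side rests on number 163 alone, since no other low number recurs in both tissues. Whether a number stands for a mouse is not stated in the labels.

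Levels across tissues are given with no test, since the members were chosen as markers. Over 6 libraries each, Lct ran from 2922 to 9437 with a median of 7094 in HPF, from 27.4 to 109 with a median of 44.6 in MDTH, and from 14.4 to 479 with a median of 32.7 in PFC. Dsp had medians of 8258 in HPF, 559 in MDTH and 74.9 in PFC, and its ratio of means was 74.4 for HPF to PFC. C1ql2 had medians of 3839 in HPF, 215 in MDTH and 190 in PFC. For these 3 genes and Zbtb20 the lowest HPF library lay above every library of the other tissues. Zbtb20 had medians of 12718 in HPF, 2686 in MDTH and 2464 in PFC, and its levels in the last 2 tissues overlapped.

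Prox1 was high in MDTH as well as HPF. Its median was 12754 in HPF, 7882 in MDTH and 820 in PFC, and MDTH high performers, up to 11985, overlapped HPF low performers, down to 10147. Iyd was nearly lacking in PFC, at 0.90 to 5.14 normalized counts, with both groups in the same range. Its 6 groups ran from 466 in HPF low performers through 318 in MDTH high performers to 72.0 in MDTH low performers and 68.0 in HPF high performers, the last pair overlapping. In PFC Iyd averaged 3.29 in high and 2.64 in low performers.

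Fibcd1 was highest in HPF high performers, with a mean of 6196, and MDTH low performers, at 1578, overlapped HPF low performers, at 1411. The means of PFC high performers (289), MDTH high performers (250) and PFC low performers (234) came next, and their ranges overlapped. Wfs1 in HPF low performers, with a mean of 3181, overlapped PFC high performers, at 3521, and MDTH high performers, at 2648. HPF high performers alone stood clear of the other groups, at 14771.

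The ventral members were not highest in HPF. Grp had medians of 223 in HPF, 83.7 in MDTH and 1215 in PFC, and its mean in HPF was 0.257 of that in PFC. Nr2f2 had medians of 508 in HPF, 2407 in MDTH and 362 in PFC, with every MDTH library above every HPF library. In HPF and PFC its ranges, 352 to 726 and 222 to 781, overlapped.

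Tests between tissues were made on the other subfield genes, fitted on all 18 libraries. These genes too were listed as markers with earlier results of these data known. Their counts and p-values between tissues, here and for Ammon's horn, are thus descriptions and support nothing. HPF libraries carry other lane codes in their column names than MDTH and PFC libraries, and all were deeper. Neither can be told apart from tissue where HPF is compared with MDTH or PFC. Of 39 genes, 30 passed for HPF minus PFC and 30 for HPF minus MDTH. The background was 21.8% of 18254 genes higher and 23.7% lower in HPF than PFC, and 29.0% higher and 29.1% lower in HPF than MDTH. Dentate genes were mostly higher in HPF, 7 of 8 against either tissue, with 1 lower against PFC. Tdo2, which breaks down tryptophan, averaged 993 normalized counts in HPF and 36.4 in PFC (log2 difference 4.85, SE 0.39, limma adjusted p = 7.77e-08), and Plk5 averaged 2988 in HPF and 309 in PFC (3.28, SE 0.22, limma adjusted p = 1.24e-08). Summed over 8 neocortical layer genes, HPF libraries held 8215 to 9823 normalized counts, MDTH libraries 22402 to 29022 and PFC libraries 30503 to 41035. By limma 7 of these were lower in HPF than PFC, but against MDTH 3 were higher and 4 lower. Tbr1 averaged 2101 and 3339 in HPF of high and low performers, and 110 and 109 in MDTH. Etv1 averaged 2171 and 1325 in HPF of high and low performers, and 5365 and 7949 in MDTH.

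Ammon's horn lists were more mixed. Of 7 CA1 genes, all were higher in HPF than MDTH, but against PFC 3 were higher and 2 lower. Ndst4, a heparan sulfate enzyme, averaged 1966 normalized counts in HPF and 215 in PFC (log2 difference 3.33, SE 0.25). Mpped1 went the other way, at 5797 in HPF and 15416 in PFC (-1.70, SE 0.16). CA3 genes were higher in 5 and lower in 2 against PFC, with Cpne4 at 11568 in HPF and 1635 in PFC (log2 difference 2.69, SE 0.13) and the neuropeptide Y receptor Npy2r at 3063 and 142 (4.38, SE 0.45), and split 2 and 2 against MDTH. CA2 genes were higher in 4 and lower in 1 against PFC, led by the neurotrophin Ntf3 at 854 in HPF and 24.9 in PFC (5.05, SE 0.25) with the calcium-binding Necab2 at 1890 and 841 (1.15, SE 0.16), and higher in 2 and lower in 4 against MDTH. Of 4 hilar mossy cell genes 2 were higher against PFC, Nmb (2.76, SE 0.42) and the adrenomedullin receptor component Calcrl (0.83, SE 0.27), and against MDTH 1 was higher and 2 lower. No ventral pole gene was higher in HPF than in either tissue by limma, and 3 of 6 were lower against each, with 0 and 1 of them higher at an unadjusted p below 0.05. Col5a1, a fibrillar collagen chain, averaged 332 in HPF and 2097 in PFC (-2.48, SE 0.25), and Htr2c 721 and 1901 (-2.31, SE 0.44).

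Genes with the profile most like each member over the 18 libraries were found by the mean absolute difference of the centred log2(normalized count + 1) values. The values were not scaled, so this distance depends on how much a member itself varied, and members cannot be ranked by it. Zbtb20 had Maml2 at 0.27 and Stc2 at 0.29 among its nearest genes. Nr2f2 was nearest to Sparc (0.35), Prox1 to Shisa6 (0.40) and then to its own antisense transcript Prox1os (0.42), and Wfs1 to Gpr161 (0.41), Pcdh19 (0.44) and Gabra2 (0.45). C1ql2 was nearest to Cebpd (0.53), Fibcd1 to Doc2b (0.59), Grp to Sstr2 (0.74) and Lct to Lrrc10b (0.92). For Iyd and Dsp, whose levels varied widely, the nearest were Dsg1c at 1.04 and Vwa3b at 1.22.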

How the data were processed

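RNA sequencing of 18 libraries was deposited as 1 table of normalized gene signal. The name of the deposited table calls this signal normalized counts. It was read here as a count per gene divided by a factor for each library, which the values alone do not show. A stranded TruSeq mRNA kit was used, per the labels' protocols. The submitters' processing notes name STAR, Salmon and DESeq2, with neither version nor role. Build, annotation and whether counting used strand are not given in the sources used here. All columns were matched to samples by library name, with 0 left unmatched. Of low values, 22.0% to 68.1% per library were whole reads within 0.02 of a read, so tests that need counts were not run. For depth, the commonest low value of a library was taken as 1 read, so the depths are rough estimates.

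The members and the gene lists were chosen with earlier results of these data known. Values were taken as log2(normalized count + 1), which understates the change of low genes, and genes with a mean of at least 10 were kept. For each tissue, limma 3.58.1 (R 4.3.3) compared its 3 high with its 3 low libraries by a two-sided moderated test with a mean-variance trend and Benjamini-Hochberg adjustment over all genes tested. A gene passed where its adjusted p was below 0.05. Differences between tissues and interactions came from a limma model of the 6 groups over all 18 libraries. The fits were also run on simulated counts, but with a lower spread than the real libraries, so that run cannot show how they perform here. Named genes were the 10 members and, of each list, the 2 with the smallest p for high minus low in HPF, and for subfield lists the 2 with the smallest p for HPF minus PFC. List genes named in MDTH, and Spink8, Plagl1, Gm8399 and Actg-ps1 in HPF, were chosen after their values were seen. Likeness took the 3 nearest genes. Some genes that these rules took are not reported here.

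Libraries with the same number in their names deviated together from their group means across tissues (11 pairs, r of 0.346 to 0.611), against r of -0.37 to 0.312 in 97 other pairs. These numbers entered only an alternative fit, as a block with a consensus correlation of 0.356. Differences between tissues and interactions are from the fit without this block unless it is named, so their p-values ignore this pairing. Whether the samples of a group are separate mice is not stated, so the spread that p-values measure may be technical. Coordinates are from GENCODE M21 on GRCm38, in which 99.2% of gene identifiers were found. Python 3.11.15, pandas 2.3.3, numpy 2.4.6 and matplotlib 3.10.9 prepared tables and figures. Alternatives tried were other pseudocounts, filters, scalings, no trend, all libraries, a replicate block, lane and each library left out.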

Additional observations from a re-analysis of the deposited data

Results flagged for a closer look

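For 7 results the difference between high and low performers itself differed between tissues by the interaction contrast in limma, with p-values adjusted over all 18254 genes. HPF minus MDTH gave -4.87 for Iyd, 4.78 for Fibcd1, 4.84 for Grp, 2.14 for C1ql2 and 2.03 for Wfs1 on the log2 scale. For Iyd, Fibcd1, Grp and C1ql2 the difference had opposite signs in the 2 tissues, at -2.75, 2.18, 1.44 and 0.60 in HPF against 2.12, -2.60, -3.40 and -1.53 in MDTH. For Wfs1 it was 2.14 in HPF against 0.10 in MDTH. HPF minus PFC gave -3.04 for Iyd and 1.61 for Nr2f2. Iyd held 0.90 to 5.14 normalized counts in PFC, under the filter of the PFC fit, and Nr2f2 was 0.57 in HPF against -1.05 in PFC. Lane and name letters in HPF and library name style in MDTH and PFC move with performance. Among low libraries, only name number 163 recurs between HPF and MDTH, and none recurs between HPF and PFC. Meningeal and choroid plexus sums varied widely between PFC libraries. The part of all these in the interactions was not tested.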

How the results depend on the processing

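In HPF 3 genes passed, and 6 did with a pseudocount of 0.5, 11 with no filter, 7 with quantile normalization, 7 with equal medians, 265 in the fit to all 18 libraries, 0 with a replicate block on title numbers and 6 with lane as a covariate. Leaving out each replicate gave 0 to 15. Of members, 1 passed in HPF, 2 with no filter, 3 in the fit to all libraries, 0 with the replicate block, 0 with lane, and 0 to 2 with a replicate left out. In MDTH 4470 genes passed, 2425 with the replicate block, and 1839 to 4223 with a replicate left out, the members being 4 and 2 to 6. In PFC 1053 genes passed, 52 with no trend, 2529 in the fit to all libraries, 0 with the replicate block and 7 to 1306 with a replicate left out. Members in PFC were 0, and 1 in the fit to all libraries. The cause was not tested. Title numbers do not pair high with low libraries (9 pairs, r of -0.127 to 0.092). With the name-number block, 2432 genes passed for the interaction HPF minus PFC against 1669 without it, and 4993 against 3476 for HPF minus MDTH. Counts of subfield genes that differ between tissues stayed within 1.5 times under the alternatives run.

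Small differences changed sign. With lane as a covariate Prox1 in HPF was -0.057 and Lct 0.033, and with equal medians Dsp was -0.014. With a replicate left out, HPF ranges were -0.13 to 0.16 for Dsp and -0.48 to 0.365 for Lct, and Dsp in MDTH ran from -0.16 to 1.70. In PFC they were -0.054 to 0.43 for Fibcd1, -1.855 to 0.58 for Dsp, -0.35 to 0.33 for Zbtb20 and -0.48 to 0.26 for Grp. Interactions HPF minus PFC ran from -0.58 to 1.86 for Dsp and -0.44 to 0.24 for Zbtb20, and HPF minus MDTH from -1.69 to 0.16 for Dsp and -0.10 to 0.23 for Zbtb20. Iyd, Fibcd1, Wfs1 and C1ql2 in HPF kept their sign in all 16 alternatives. Low levels limit Iyd in PFC and Grp in MDTH, where 1 read was estimated to be worth over 1 normalized count.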
